A study of Homo sapiens with 6 samples.

Results

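Serine is made inside the cell from a glycolytic intermediate, and it gives up a carbon unit to folate when it is turned into glycine. That unit is used for nucleotides and methionine, so rapidly dividing cells depend on the pathway, and most of its enzymes in the cytosol have a counterpart in the mitochondrion. The transcription factor ATF4, which is translated when amino acids run short, is known to raise many of these genes together with asparagine synthetase, while serine dehydratase takes serine out of the pathway and is best known from liver. The genes described here are 10 enzymes of serine breakdown (SDS, SDSL), serine synthesis (PHGDH, PSAT1, PSPH), carbon transfer from serine to folate (SHMT1, SHMT2, MTHFD2, MTHFD1L) and asparagine synthesis (ASNS), found by symbol among 56305 genes with deposited counts. SDS was chosen because its fall on ZW27941 was among the largest in these libraries, so its values are given as a description with no test, and the other 9 were chosen by pathway with earlier results known.

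The libraries came from MOLM13, an acute myeloid leukemia line with an internal tandem duplication of FLT3 and a rearrangement of chromosomes 9 and 11 (p22 and q23). Cells were kept for 24 h with DMSO, the vehicle (3 libraries), or with 1 μM ZW27941, a VHL-recruiting degrader of the m6A methyltransferase METTL3 (3 libraries). The labels do not say whether the replicates were separate cultures, so p-values measure the spread between these samples, which may be technical. All samples are from 1 cell line, and no compound without degrader activity was sequenced.

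The libraries held between 143454176 and 178744976 counts on genes, more than the raw reads per sample that the sequencing protocol states, for which the sources used here give no reason, so counting errors below hold only if a count is 1 read pair. ZW27941 replicate 3 had the largest share of reads aligned to several places, 5.25% against 3.63% to 4.07% in the others. Levels are given as CPM, the counts scaled to a common library size by TMM. The METTL3 transcript lay between 120 and 122 CPM in DMSO and between 119 and 128 CPM on ZW27941, and since the degrader acts on the protein this does not check the labels. Of 12 myeloid leukemia markers, 11 were at means of 46.6 CPM or more in DMSO, and CD68 was at 0.231 CPM there. Of the hepatocyte markers, SERPINA1, which myeloid cells also express, was at 2.87 to 3.40 CPM and CPS1 at 0.569 to 0.926 CPM, and TTR and CYP3A4 were among those at 0 in every library.

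RefSeq promoter windows of 250 bases before to 50 bases after a start site (GRCh38.p14) were found for 7 of the 10 genes, namely SDS, PHGDH, PSAT1, SHMT1, MTHFD2, MTHFD1L and ASNS. The letters TGATGNAA, the core of the element through which ATF4 and its C/EBP partners act on ASNS, were searched on both strands and occurred in ASNS and MTHFD1L. Of all 27305 genes with a window, 4.46% held them. The stretches below are shown because one belongs to the tested gene with the largest fall and the other to the gene whose interval lay closest around 0, and the capitals mark the match. The ASNS match begins 68 bases before its start (chr7:97872458-97872487, minus strand). The MTHFD1L match (chr6:150866346-150866375, plus strand) begins 129 or 90 bases before 2 of its start sites and 24 bases after the other one.
ASNS: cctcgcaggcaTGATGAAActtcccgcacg
MTHFD1L: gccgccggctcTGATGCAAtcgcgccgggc

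The letters CCAAT, which overlapped no TGATGNAA match, were found in either orientation in 6 of the 7 genes, all but ASNS, and in 39.7% of all genes with a window. PSAT1 carries them 3 times, of which the copy nearest to the start is shown (chr9:78297061-78297090, plus strand). PHGDH (chr1:119711851-119711880, plus strand) and the nearer of the 2 matches of MTHFD2 (chr2:74198529-74198558, plus strand) are added as the first enzyme of synthesis and the tested gene with the smallest spread. Of the 2 motifs searched this is the one more members hold, and the matches describe letters only.
PSAT1: cgacagcacgggCCAATggggcgccgactc
PHGDH: gagtatttccgtCCAATcaaaaggagactg
MTHFD2: atgcggcagggaCCAATgggtggcggaggg

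To compare levels between genes, CPM were divided by the length of all exons of a gene merged in GENCODE v29. SHMT2 had the highest level per length in DMSO, 93.6 ± 1.85 CPM per kb (SD, n = 3), and MTHFD2 followed with 59.4 ± 0.179 CPM per kb (SD, n = 3). PSAT1 was at 35.2 ± 0.202, PHGDH at 21.9 ± 0.963 and MTHFD1L at 20.2 ± 0.314 CPM per kb (SD, n = 3 each). PSPH and ASNS, at 11.3 ± 0.252 and 11.0 ± 0.279 CPM per kb (SD, n = 3 each), were neighbours whose libraries overlapped. SHMT1 was at 6.26 ± 0.146 CPM per kb (SD, n = 3), so the mitochondrial SHMT2 was far above its cytosolic counterpart. The breakdown enzymes came last, SDSL with 2.59 ± 0.0701 and SDS with 1.47 ± 0.0738 CPM per kb (SD, n = 3 each). With the length of the principal transcript in place of merged exons, a choice added after the data were seen, SHMT2 stayed first and SDS last, while PHGDH rose to 78.2 CPM per kb, above MTHFD2 with 64.9, and SHMT1 (18.5) and ASNS (20.9) passed PSPH (14.3).

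**Figure D1:**
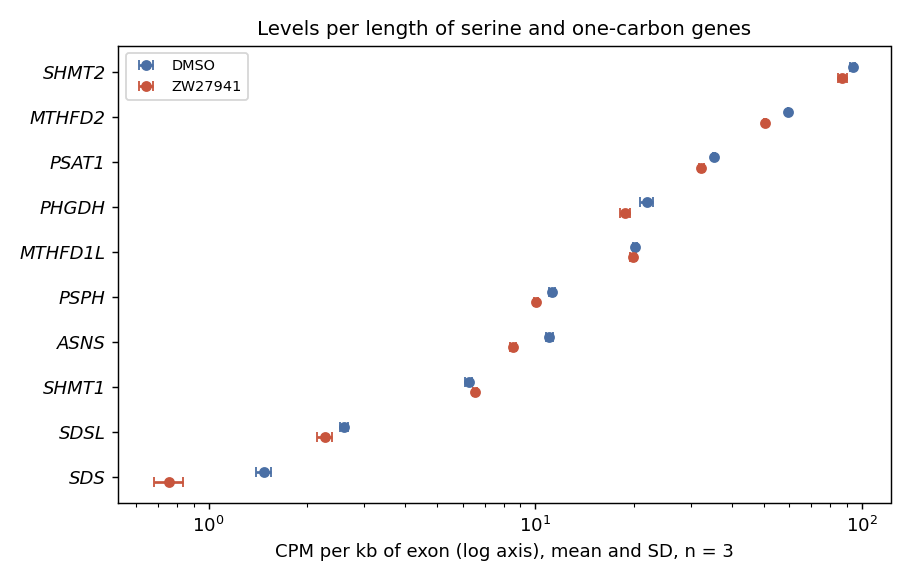
Level per length of each gene in CPM per kb of merged exon on a log axis, with the mean and SD of 3 libraries for DMSO (blue) and ZW27941 (red). The order runs from SHMT2 at 93.6 CPM per kb in DMSO down to SDS at 1.47 CPM per kb.

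Across all 20399 genes that passed the filter on low counts, 13.8% were lower and 16.3% were higher on ZW27941 when edgeR's quasi-likelihood p was adjusted by Benjamini-Hochberg and held to 0.05, together 30.1%. All 10 genes of the set passed the filter. Of the 9 genes other than SDS, 7 were lower, 0 were higher and 2 did not pass the same quasi-likelihood test. At an unadjusted p under 0.05, 1 of them was higher, and DESeq2 called 7 lower and 0 higher. Over all genes, DESeq2 called 5433 of 18555 in either direction. No share over all genes is given here at an unadjusted p. The libraries of the 2 conditions did not overlap for 7 genes that were lower and for 1, SHMT1, that was higher, where 19.9% and 21.7% of all genes tested did not overlap in these directions. The median log2 fold change of the 9 genes was −0.16, against −0.0019 over all genes tested. As the genes were chosen with results known, these counts describe the set. In bulk RNA, fewer cells of a kind and less RNA per cell cannot be told apart.

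**Figure D2:**
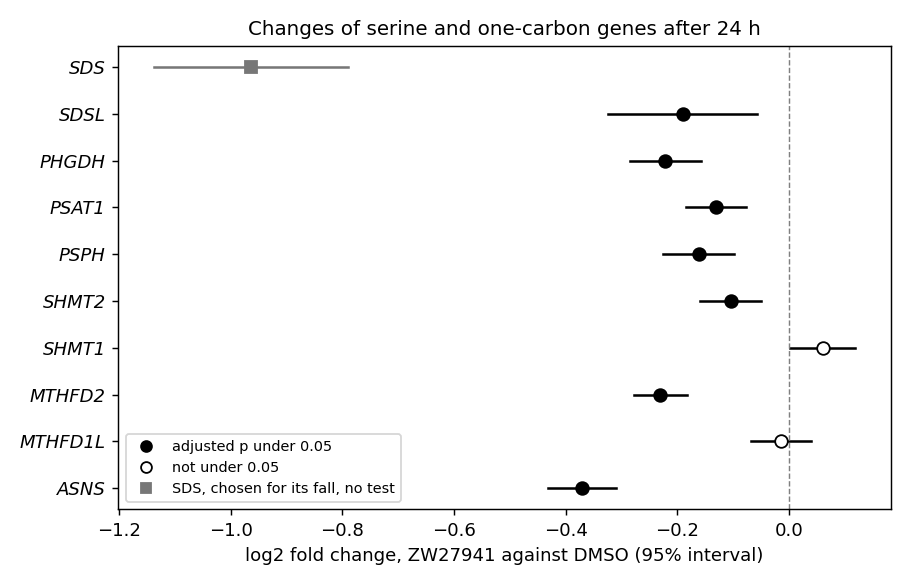
Log2 fold change of each gene on ZW27941 against DMSO with its 95% interval, from 3 libraries per group. The interval drawn for SDS is not to be read as a test, since SDS was chosen for its fall in these libraries. SDS, a grey square with no test, lies at −0.96, the genes past an adjusted p of 0.05 (filled) lie between −0.37 and −0.10, and SHMT1 and MTHFD1L (open) lie at 0.061 and −0.015.

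SDS, which deaminates serine and threonine and so drains them from the pathway, was the member that differed most between the conditions. It was at 4.23, 4.67 and 4.40 CPM in the DMSO libraries and at 2.15, 2.12 and 2.54 CPM in the ZW27941 libraries. Every ZW27941 library lay well below every DMSO library, and ZW27941 replicate 3 was the highest of its group. The means were 4.43 ± 0.222 CPM and 2.27 ± 0.233 CPM (SD, n = 3 each), so the ZW27941 mean was 51.3% of the DMSO mean. The log2 fold change was −0.96 (standard error 0.084), and 1.04% of the genes tested had a lower one. The value rests on 306 to 704 counts per library, for which counting error alone is up to 5.72%. SDS is best known as a liver enzyme. The 10 hepatocyte markers summed to between 3.77 and 4.32 CPM in DMSO and between 3.85 and 4.24 CPM on ZW27941. SERPINA1 made up most of this. Of the 10, 4 were tested and 0 were called in either direction by the quasi-likelihood test, where 30.1% of all genes tested were called. At an unadjusted p under 0.05 and with DESeq2, 0 were called as well. HNF4A held only 8 to 20 and APOA1 13 to 25 counts per library, so a change in them could be missed. Whether SDS fell apart from other liver genes was not tested.

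SDSL, a homolog of SDS encoded beside it on chromosome 12, was lower by a smaller margin. It was at 5.90, 5.74 and 5.59 CPM in DMSO and at 5.32, 4.92 and 4.84 CPM on ZW27941. The ranges did not overlap, but the highest ZW27941 library came near the lowest DMSO library. The log2 fold change was −0.19 (SE 0.064, Benjamini-Hochberg adjusted p = 0.0282, edgeR quasi-likelihood). This call was lost in 4 of the 6 fits that left out 1 library, where the edgeR quasi-likelihood adjusted p was 0.103 without DMSO replicate 1, 0.0720 without DMSO replicate 2, 0.0920 without ZW27941 replicate 2 and 0.0537 without ZW27941 replicate 3. The log2 ratio of SDS to SDSL counts was −0.38 ± 0.095 in DMSO and −1.15 ± 0.20 on ZW27941 (SD, n = 3 each), a difference that the choice of SDS for its fall bears on. In GENCODE v29 (GRCh38), SDS spans chr12:113392445-113426301 on the minus strand and SDSL chr12:113422237-113438276 on the plus strand, so the genes overlap by 4065 bases without a shared exon.

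All 3 enzymes of serine synthesis fell. PHGDH, which oxidizes 3-phosphoglycerate and commits it to serine, was at 197, 212 and 197 CPM in DMSO and at 169, 171 and 181 CPM on ZW27941. No library of one condition reached the range of the other, although DMSO replicate 2 and ZW27941 replicate 3 each stood above the rest of their group. The log2 fold change was −0.22 (SE 0.031, Benjamini-Hochberg adjusted p = 1.02e-05, edgeR quasi-likelihood).

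PSAT1, the transaminase that makes phosphoserine, was at 77.1, 77.5 and 76.7 CPM in DMSO and at 71.1, 71.3 and 69.0 CPM on ZW27941. The groups did not overlap, with a coefficient of variation of 0.574% among the DMSO libraries and 1.76% among the ZW27941 libraries and a log2 fold change of −0.13 (SE 0.026, edgeR quasi-likelihood adjusted p = 4.82e-04). PSPH, the phosphatase that releases serine, was at 31.7, 31.2 and 30.3 CPM in DMSO and at 28.2, 27.4 and 27.8 CPM on ZW27941. Again all ZW27941 libraries lay below all DMSO libraries, with a log2 fold change of −0.16 (SE 0.031, edgeR quasi-likelihood adjusted p = 3.52e-04). PSPH shares sequence with the pseudogene PSPHP1, which held 1051 to 1277 counts per library and had a log2 fold change of −0.11 (edgeR quasi-likelihood adjusted p = 0.170). Reads that fit both would fall among those aligned to several places, so the PSPH counts may lack some reads. The other 16 annotated pseudogenes of the set held at most 25 counts in any library.

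**Figure D3:**
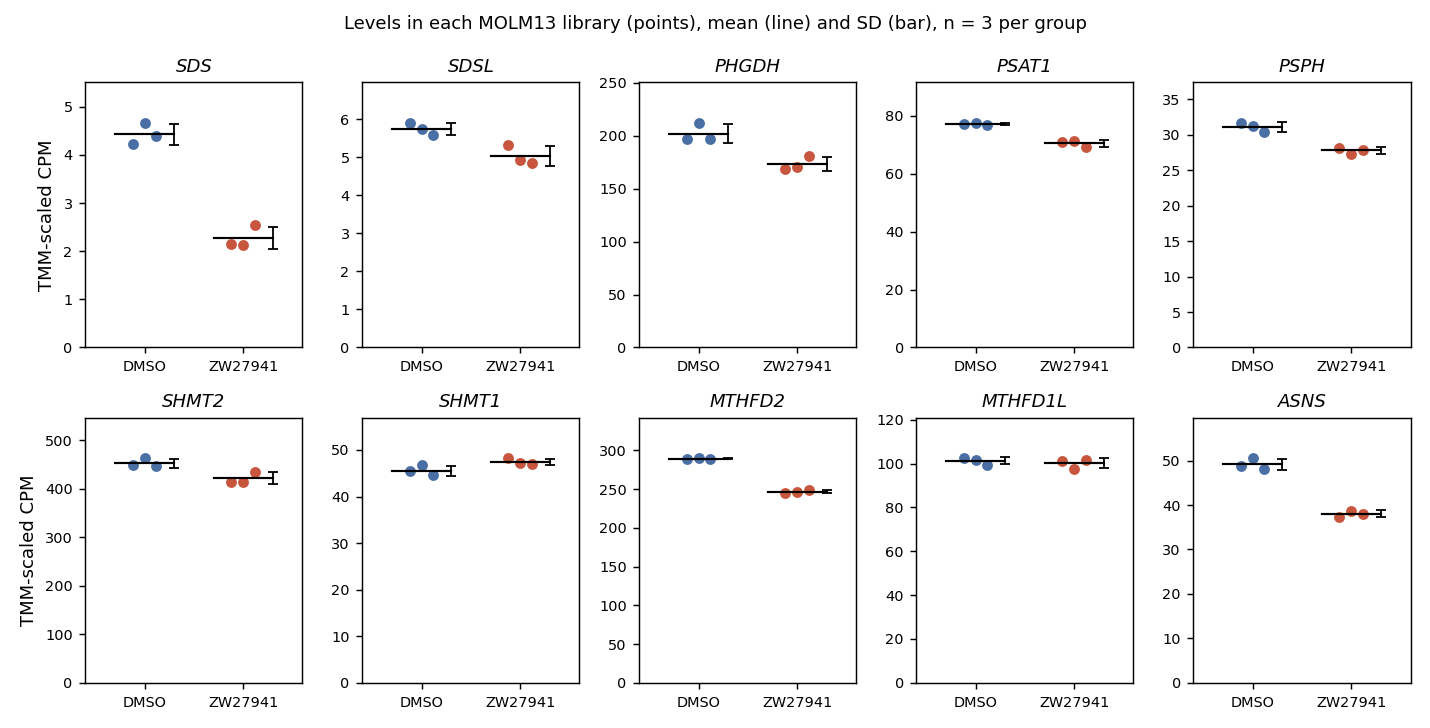
TMM-scaled CPM of each gene in every library, with 3 DMSO (blue) and 3 ZW27941 (red) points, the group mean as a line and the SD as a bar, each panel with its own axis from 0. The ZW27941 points lie below the DMSO points in all panels except SHMT1, where they lie above, and MTHFD1L, where they overlap.

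Serine hydroxymethyltransferases pass the carbon of serine to tetrahydrofolate, SHMT2 in the mitochondrion and SHMT1 in the cytosol. SHMT2 was at 448, 463 and 447 CPM in DMSO and at 415, 414 and 436 CPM on ZW27941. The groups did not overlap, and SHMT2 fell with a log2 fold change of −0.10 (SE 0.026, Benjamini-Hochberg adjusted p = 0.00438, edgeR quasi-likelihood). SHMT1 was at 45.4, 46.7 and 44.6 CPM in DMSO and at 48.2, 47.3 and 47.0 CPM on ZW27941. Its ZW27941 libraries all lay above its DMSO libraries, but the gap was narrow and the gene did not pass, with a log2 fold change of 0.061 (95% interval 0.0019 to 0.12, edgeR quasi-likelihood adjusted p = 0.113). SMCR8, which lies on the opposite strand and shares 196 exonic bases with SHMT1 in GENCODE v29, had a log2 fold change of 0.19 (edgeR quasi-likelihood adjusted p = 1.25e-05). The sources used here do not give the strand setting of the counting. Whether reads in these bases were counted to SHMT1, to SMCR8 or to neither is therefore not known. HTSeq set aside 2.69% to 2.80% of each library as fitting several genes.

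The log2 ratio of SHMT2 to SHMT1 counts, which does not depend on scaling between libraries, was 3.30, 3.31 and 3.33 in DMSO and 3.11, 3.13 and 3.21 on ZW27941. It was lower in all ZW27941 libraries, with a difference of −0.16 between the means (exact two-sided permutation p = 0.1, the smallest that 3 against 3 allows).

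SHMT2 shares 9.51% of its exonic bases with other genes, all on the opposite strand, and MTHFD2 shares 33.2%, of which 1324 bases lie in SLC4A5, at 0.195 to 0.379 CPM in DMSO and 0.166 to 0.233 CPM on ZW27941. Without the strand setting, the gene to which reads in these bases were counted, if any, is not known either.

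The next mitochondrial steps behaved unequally. MTHFD2, which oxidizes methylene-tetrahydrofolate and is abundant in tumours, was at 288, 290 and 289 CPM in DMSO and at 244, 247 and 248 CPM on ZW27941. The libraries of each group were nearly level, and MTHFD2 fell with a log2 fold change of −0.23 (SE 0.023, Benjamini-Hochberg adjusted p = 1.85e-07, edgeR quasi-likelihood). MTHFD1L, which releases formate from the mitochondrial folate pool, was at 102, 102 and 99.5 CPM in DMSO and at 101, 97.6 and 102 CPM on ZW27941. Its groups overlapped and it did not pass, with a log2 fold change of −0.015 (95% interval −0.068 to 0.039, edgeR quasi-likelihood adjusted p = 0.715). The log2 ratio of MTHFD2 to MTHFD1L counts was 1.49, 1.51 and 1.54 in DMSO and 1.27, 1.34 and 1.29 on ZW27941. The means differed by −0.215, with all ZW27941 libraries below all DMSO libraries (exact two-sided permutation p = 0.1, the smallest that 3 against 3 allows).

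ASNS, which makes asparagine from aspartate and glutamine and is a textbook target of ATF4, had the largest fall among the 9 genes tested. It was at 48.7, 50.5 and 48.1 CPM in DMSO and at 37.3, 38.8 and 38.1 CPM on ZW27941. The gap between the groups was several times the spread within either of them. The ZW27941 mean was 77.4% of the DMSO mean, with a log2 fold change of −0.37 (SE 0.029, Benjamini-Hochberg adjusted p = 5.59e-09, edgeR quasi-likelihood), and 8.18% of the genes tested had a lower one. In GENCODE v29, 44.6% of its exonic bases are shared with a transcript on the same strand named AC079781.5, which was at 0 in every library. Reads in the shared bases may have been given to neither gene, so this 0 does not show that AC079781.5 was silent. The ASNS level per length given above may be too low for the same reason.

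The other genes of these pathways were counted in 7 lists, beside which stand 13.8% lower and 16.3% higher over all genes tested. Of the ATF4 list, which holds ATF4, its partners and feedback genes, 10 of 13 (76.9%) fell and 1 (7.69%) rose in the quasi-likelihood test, with a median log2 fold change of −0.27. ATF4 itself was at 379, 389 and 388 CPM in DMSO and at 327, 337 and 344 CPM on ZW27941, so it too was lower in every ZW27941 library (log2 fold change −0.20, Benjamini-Hochberg adjusted p = 3.80e-06, edgeR quasi-likelihood). DDIT3, a stress transcription factor, fell by 0.74 on the log2 scale, TRIB3, an inhibitor of ATF4, fell by 0.42, and PPP1R15A, which restores translation through eIF2 dephosphorylation, fell by 0.42. CEBPG, a dimer partner of ATF4, was the gene that rose, with a log2 fold change of 0.14.

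Folate cycle enzymes and carriers were measured with 21 genes, of which 17 were tested, 6 (35.3%) fell and 2 (11.8%) rose (median log2 fold change 0.0044). ALDH1L2, which oxidizes formyl-tetrahydrofolate in the mitochondrion, fell by 0.26 on the log2 scale. ATIC, which uses formyl-tetrahydrofolate for purines, fell by 0.18. In the methionine cycle and transsulfuration list, 11 of 14 genes were tested, 3 (27.3%) fell and 1 (9.09%) rose. CTH, which releases cysteine from cystathionine, was at 4.65, 4.97 and 4.83 CPM in DMSO and at 3.62, 3.45 and 3.62 CPM on ZW27941 (log2 fold change −0.43, Benjamini-Hochberg adjusted p = 4.96e-05, edgeR quasi-likelihood). AHCYL1, a relative of S-adenosylhomocysteine hydrolase, fell by 0.16 on the log2 scale, while SRR, the serine racemase, rose by 0.40.

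Among transporters of serine and other neutral amino acids, 13 of 15 genes were tested, 6 (46.2%) fell and 2 (15.4%) rose (median log2 fold change −0.062). The subunits of a large neutral amino acid exchanger fell together, SLC7A5 by 0.22 and SLC3A2 by 0.18 on the log2 scale, and SFXN5, a sideroflexin of the mitochondrial membrane, rose by 0.22. Genes that use serine for lipids gave 3 (27.3%) that fell and 1 (9.09%) that rose among 11 tested of 12, against 13.8% and 16.3% of all genes. PTDSS2, a phosphatidylserine synthase, fell by 0.16 and SERINC2 by 0.083, while SPTLC2, a subunit of serine palmitoyltransferase, rose by 0.13. The SERINC2 call was lost without DMSO replicate 2 (adjusted p = 0.0666), DMSO replicate 3 (0.0621) or ZW27941 replicate 2 (0.0533) in edgeR's quasi-likelihood test, and the count of genes that fell was then 1.

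In the list of asparagine, aspartate, glutamine and proline enzymes, which holds the pathways next to ASNS, 12 of 12 genes were tested, 1 (8.33%) fell and 3 (25%) rose (median log2 fold change 0.071), against 13.8% and 16.3% of all genes. PYCR1, the last enzyme of proline synthesis in the mitochondrion, fell by 0.17 on the log2 scale. ALDH18A1, which opens that route, rose by 0.12, and GLUL, glutamine synthetase, rose by 0.11. Glycine cleavage and threonine breakdown gave 8 genes tested of 12, with 1 (12.5%) that fell and 1 (12.5%) that rose. GCAT, a threonine breakdown enzyme, fell by 0.19 on the log2 scale. AGXT, which turns glyoxylate into glycine, was at 3.34, 4.14 and 3.79 CPM in DMSO and at 4.47, 4.49 and 4.27 CPM on ZW27941 (log2 fold change 0.23, edgeR quasi-likelihood adjusted p = 0.0273). This call was lost without DMSO replicate 1 (adjusted p = 0.163), DMSO replicate 3 (0.0586), ZW27941 replicate 1 (0.0572) or ZW27941 replicate 2 (0.0801) in the same quasi-likelihood test.

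**Figure D4:**
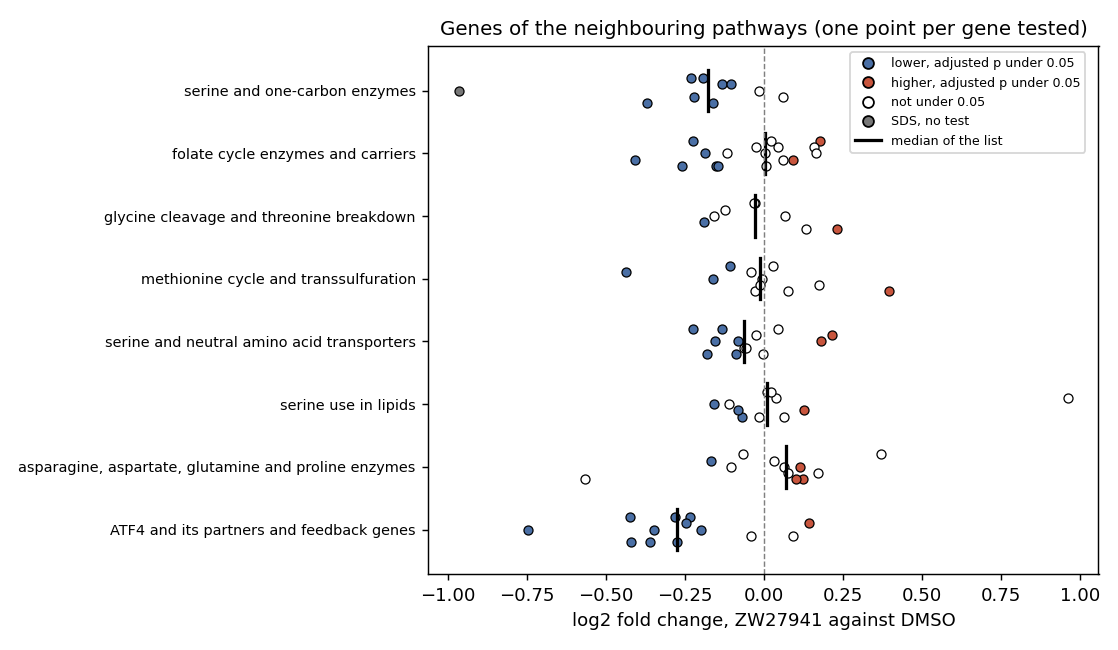
Log2 fold change on ZW27941 against DMSO of every tested gene (1 point each) in the set and in the 7 lists, with the list's median as a bar, and filled points for an adjusted p under 0.05 (blue lower, red higher) and SDS in grey. The medians of the ATF4 list, at −0.27, and of the set, at −0.18 with SDS included, lie furthest to the left. Without SDS, which was chosen for its fall, the median of the set is −0.16. The other 6 lists have medians between −0.062 and 0.071.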

How the data were processed

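Total RNA of MOLM13 was sequenced by the authors, who deposited raw counts of reads per gene symbol, 1 set per library, with no normalization. The submitters' processing notes name HISAT2, SAMtools 1.19.2, HTSeq 2.0.3 and hg38. The annotation and the strand setting are not given in the sources used here. HTSeq's 5 tallies of reads given to no gene (37.4% to 39.8% of each library) were left out. Library pairs within a group differed in their counts (chi-square per degree of freedom from 4.35 to 11.5). No pair therefore held the same counts under another name. Whether they differed beyond sampling noise is not known, since the chi-square holds only if a count is 1 read pair. The values do not show that the libraries are independent cultures.

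From the counts, edgeR 4.0.16 under R 4.3.3 gave the comparison (TMM, filterByExpr, quasi-likelihood test) over all 20399 genes that passed, with Benjamini-Hochberg adjustment and a threshold of 0.05. Intervals are 95%. The fit was tested on simulated counts. Gene positions and lengths came from GENCODE v29 (GRCh38) and promoters from RefSeq. The members and lists were chosen with earlier results of these data known. The genes named are the 10 members, their pseudogenes and, in each list, up to 3 genes past the threshold with no overlap between conditions and the lowest p. Others named (ATF4, CEBPG, SMCR8, SLC4A5 and AC079781.5) were chosen after their values were seen. So were the individual markers of cell types that are named, among them CSF1R, LYZ, HOXA9, FLT3, MEIS1 and KRT18. METTL3 was added as the target of the degrader. Some items that this rule or the sequence search gave are not reported here. Alternatives were other normalizations, filters and tests (DESeq2 1.42.0, likelihood ratio), a replicate block, thinning to the smallest gene total and each library left out. RT-qPCR and protein experiments were not analysed here.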

Additional observations from a re-analysis of the deposited data

How the results depend on the processing

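Of the 9 members other than SDS, 7 were called lower under the 9 alternatives that kept all libraries and 6 or 7 when a library was left out, and the number called higher was 0 in all of them. Genes called over the whole table, 6149 with all libraries, numbered 4836 to 6134 when a library was left out. The SDS log2 fold change ran from −1.05 to −0.92 over 15 alternatives. Leaving out 1 library, the MTHFD1L log2 fold change ran from −0.028 to 0.0023, above 0 only without ZW27941 replicate 2. With upper quartile normalization, the folate list gave 1 gene higher and the asparagine, aspartate, glutamine and proline list 3 lower. With library size only, the glycine and threonine list gave 2 higher and the asparagine list 5 higher. With no filter, the methionine list gave 2 higher and the asparagine list 5 higher. Serine use in lipids gave 2 lower with library size only, no filter or a replicate block, and 4 lower with upper quartile normalization. The cause was not tested. Leaving out 1 library, genes lower and higher ran from 6 to 6 and 1 to 3 in the folate list, from 1 to 1 and 0 to 2 in the glycine list, from 3 to 3 and 1 to 2 in the methionine list, from 5 to 6 and 2 to 3 in the transporters, from 1 to 3 and 1 to 2 in serine use in lipids, from 1 to 2 and 2 to 5 in the asparagine list, and from 10 to 10 and 1 to 1 in the ATF4 list. Without ZW27941 replicate 2 the genes higher were 1 in the folate list, 0 in the glycine list, 2 in the methionine list, 2 in serine use in lipids and 5 in the asparagine list. The folate list also gave 1 higher without DMSO replicate 1 or 2, the glycine list 0 higher without DMSO replicate 1 or 3 or ZW27941 replicate 1 and 2 higher without ZW27941 replicate 3, and the asparagine list 2 lower without ZW27941 replicate 3. The change in the log2 ratio of SHMT2 to SHMT1 ran from −0.196 to −0.143, and that of MTHFD2 to MTHFD1L from −0.234 to −0.202. Same-numbered DMSO and ZW27941 libraries did not deviate together (correlations −0.012, 0.012 and 0.017), so no pairing by number was seen. The correlations cannot exclude a pairing, since all genes tested weigh equally in them, also those with low counts. With a replicate block 6010 genes were called, and 7 of these 9 members were lower. Among the lower levels, SDS and SDSL are limited by counts of 306 to 960 per library.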

Other observations

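Of the 12 myeloid leukemia markers, 7 rose and 0 fell after Benjamini-Hochberg adjustment of edgeR's quasi-likelihood p, where 16.3% of all genes tested rose and 13.8% fell. Without adjustment 7 passed 0.05 upward and 1 downward, and DESeq2 called 7 upward and 0 downward. The shares of all genes given here hold for the adjusted quasi-likelihood test only. CSF1R, the receptor for macrophage colony-stimulating factor, had a log2 fold change of 0.40 and LYZ, lysozyme, of 0.27. HOXA9, the 1 that passed downward without adjustment, had a log2 fold change of −0.061 (edgeR quasi-likelihood adjusted p = 0.108). FLT3, MEIS1 and CD68 also lay below 0, at −0.022, −0.022 and −0.058, and did not pass. Of the lymphoid and erythroid markers 3 of 9 were tested and 0 passed the quasi-likelihood test, against 1 lower at an unadjusted p under 0.05 and 0 with DESeq2. Of the epithelial and fibroblast markers 4 of 7 were tested and 1, KRT18, fell, with a log2 fold change of −0.31.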
